A study of Homo sapiens with 3 samples.

Results

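Antisense RNAs are transcripts read from the strand opposite to a protein-coding gene, and many carry that gene's symbol followed by "-AS" and a number. The count table of PANC-1 cells, an established human pancreatic cancer cell line, held 51136 gene rows, of which 982 had such a name, and 175 of these reached 20 or more counts in at least 1 of 3 libraries. These 175 antisense RNAs were described here beside the sense gene named before the hyphen. Of the other antisense rows, 471 had 0 counts in every library and 336 had 1 to 19 counts in their highest library. Just inside the limit, 20 antisense RNAs had 20 to 24 counts in their highest library, and just outside it 30 rows had 15 to 19. The limit was set on these same counts, so the levels below are a description of the chosen rows.

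The libraries were an untreated PANC-1 culture (control), a culture given 200 μM ginsenoside Rg3 (Rg3), a saponin of ginseng, and a culture given 50 μM tamoxifen (TAM), a selective estrogen receptor modulator, each drug for 24 h. The study set the drugs beside untreated cells to see how they changed gene expression. No vehicle is named for the control. There was 1 library per condition, so no spread between replicates could be measured, no p-value is given, and every comparison is between these 3 libraries. The libraries held 11300766 counts (control), 12861693 counts (Rg3) and 11321442 counts (TAM). Of the epithelial keratins, KRT8 had 15329, 7817 and 14411 counts in control, Rg3 and TAM, KRT18 11216, 7406 and 13162, KRT19 665, 290 and 181 and KRT7 248, 93 and 345, so KRT19 alone of the 4 was lower in TAM than in Rg3. Vimentin (VIM) had 55276, 39783 and 42048. The leukocyte marker PTPRC, the endothelial marker PECAM1, the hepatocyte marker ALB and the beta cell marker INS had 0 or 1 count in each library, while the collagen gene COL1A1 had 1853, 1005 and 734 counts, and its part in the results was not tested.

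Natural antisense RNAs are placed in several ways. Some start beside the promoter of the sense gene and are read away from it, some start inside the sense gene, and some run into its far end. Individual antisense RNAs are known to act on the sense gene, on chromatin elsewhere or as binding partners of small RNAs, and others are byproducts of an open promoter. An antisense RNA is usually far less abundant than the messenger RNA opposite it.

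The antisense RNAs were scarce in all 3 libraries. Together they took 13932 counts in control, 17206 in Rg3 and 15155 in TAM, which is 0.123% (exact 95% binomial interval 0.121 to 0.125), 0.134% (0.132 to 0.136) and 0.134% (0.132 to 0.136) of all counts. These intervals and those below cover counting error only. The median of their highest count was 51, 160 of the 175 stayed under 200 counts in every library, and 41 reached 100. Of the 175, 108 had 20 or more counts in all 3 libraries, while 8 reached 20 in control alone, 15 in Rg3 alone and 16 in TAM alone. An antisense RNA that entered through 1 library alone had to stand higher there.

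LRRC75A-AS1, the host transcript of several small nucleolar RNAs, was by far the most counted, with 2977 counts in control, 3859 in Rg3 and 3005 in TAM. It lies at chr17:16438822-16478678 on the plus strand (GRCh38), and its log2 folds after scaling were 0.05 with Rg3 and 0.22 with TAM, neither past the limit for a call. A call required a fold over 1.5 or under 0.67 against control, after scaling by trimmed mean of M values (TMM), together with an exact 95% counting interval on 1 side of no change. The sense gene LRRC75A had 25, 24 and 12 counts, so here the antisense RNA carried nearly all reads of the pair.

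FGD5-AS1, a long noncoding RNA studied in several cancers, had 1049, 1572 and 543 counts. The TAM library was the low library, with a log2 fold of -0.74 (95% counting interval -0.90 to -0.59), which became -0.43 and lost its call when the trend of fold on base composition and length was removed. Its sense gene FGD5, an exchange factor for the GTPase CDC42, had 0, 2 and 0 counts. TP73-AS1, opposite the p53 family member TP73, had 696, 628 and 661 counts and was called with neither drug.

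MMP24-AS1, opposite the membrane metalloproteinase gene MMP24, had 423, 319 and 682 counts. BAIAP2-AS1 had 423, 322 and 481 counts. Both were lower in Rg3, with log2 folds of -0.73 (-0.95 to -0.52) and -0.72 (-0.93 to -0.51), and MMP24-AS1 was higher in TAM at 0.90 (0.72 to 1.07). With the composition trend removed, the Rg3 fold of BAIAP2-AS1 was -0.19 and no longer called.

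OIP5-AS1, opposite a gene needed for centromere assembly, had 286, 540 and 286 counts, and its Rg3 fold of 0.59 (0.38 to 0.80) turned to -0.18 once the composition trend was removed, while its TAM fold went from 0.21, not called, to 1.06, called. SVIL-AS1, opposite the actin-binding supervillin gene, had 144, 304 and 144 counts and was higher in Rg3 at 0.75 (0.46 to 1.05). MAGI2-AS3, beside a junction scaffold gene, had 160, 259 and 110 counts with no call, and its Rg3 fold of 0.37 turned to -0.58, called lower, without that trend. The plot of levels by library shows these abundant RNAs beside those with the largest called changes.

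**Figure D1:**
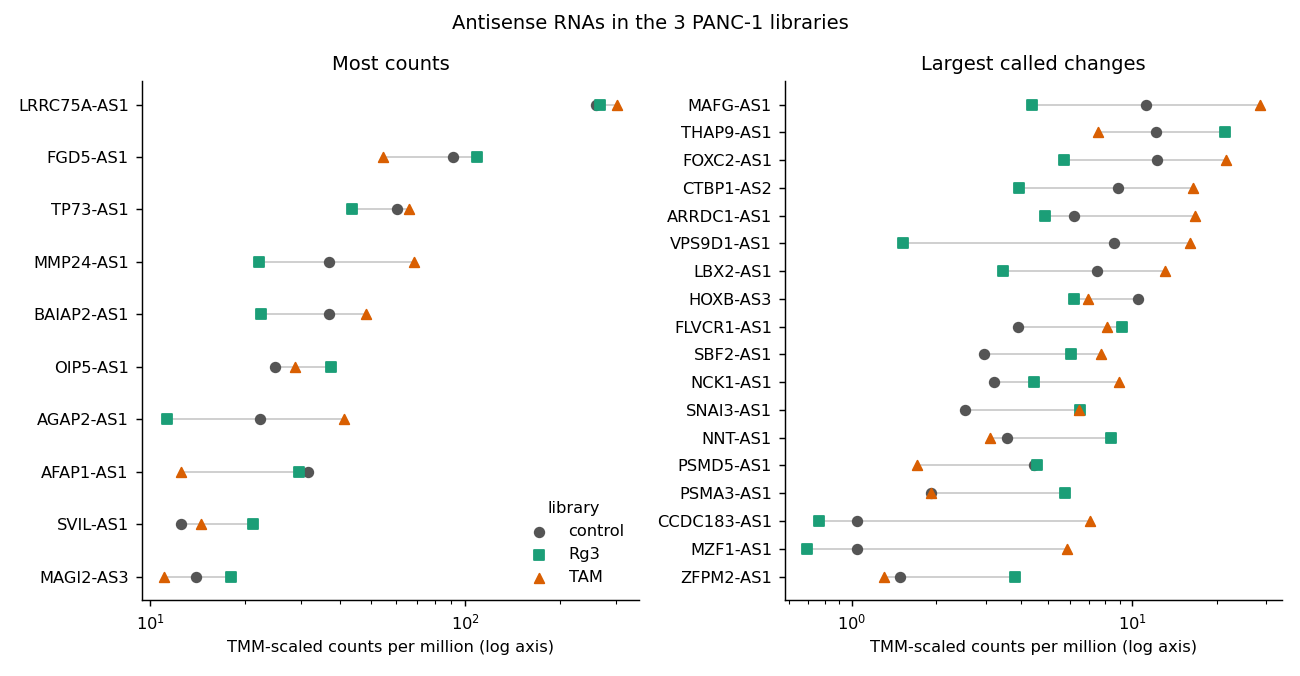
Levels of antisense RNAs in the 3 PANC-1 libraries, as TMM-scaled CPM (counts divided by the scaled library size) on a log axis, 1 point per library, for the 10 with the most counts (left) and for those with the largest called changes in either treatment (right). LRRC75A-AS1 stands apart at the top left, and VPS9D1-AS1, MAFG-AS1 and CTBP1-AS2 have the Rg3 point on the left and the TAM point on the right of control.

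Per kilobase of annotated exons, the antisense RNA lay below its sense gene in 109 of 167 pairs in control, 118 in Rg3 and 90 in TAM. Among pairs with counts on both sides, the median ratio of sense to antisense level per length was 3.63 in control, 3.36 in Rg3 and 2.32 in TAM. The middle of the distribution was wide, with quartiles of 0.572 and 11.4 in control. In 22 pairs the sense gene stayed under 20 counts in every library, and in 5 of those it had 0 counts throughout.

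With Rg3, 25 antisense RNAs were higher and 29 lower than in control, which is 14.3% and 16.6% of the 175. Among all 14885 genes with 20 or more counts in a library, 22.5% were called higher and 17.1% lower. Of the 145 sense genes with 20 or more counts 20.7% were higher and 15.9% lower, and of 69 intergenic RNAs named LINC 5.8% and 15.9%. Their median log2 fold was -0.05, against 0.04 over all genes. Scaling by library totals, which shifted all log2 folds with Rg3 by 0.14, gave 32 higher (18.3%) and 24 lower (13.7%), beside 29.1% and 11.5% of all genes. With the trend of fold on GC content and length removed, 18 (10.5%) of 172 were higher and 29 (16.9%) lower, beside 5.63% and 7.89% of all genes. Over the 133 antisense RNAs with 20 or more counts in control, 18 (13.5%) were higher and 28 (21.1%) lower. All genes chosen in the same way had 22% and 18.1%. The share of lower antisense RNAs was thus just under that of all genes for the 175 with TMM. It was above it for the 133 and under both alternatives. The share of higher ones was under that of all genes except with the trend removed, where it was above.

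The antisense RNAs that rose most among those with 50 or more counts in a compared library were PSMA3-AS1, SNAI3-AS1, ZFPM2-AS1, NNT-AS1 and FLVCR1-AS1. PSMA3-AS1, opposite a proteasome subunit gene, had 22, 83 and 19 counts, a log2 fold of 1.59 (0.90 to 2.34) with Rg3. SNAI3-AS1, around a gene of the Snail repressor family, had 29, 94 and 64 counts, and its Rg3 fold was 1.37 (0.76 to 2.02). NNT-AS1, beside the mitochondrial transhydrogenase gene, had 41, 121 and 31 counts and a fold of 1.23 (0.71 to 1.78). The Rg3 library was the high library for all 3, but the call of NNT-AS1 ended without the composition trend, at 0.40, as did that of ZFPM2-AS1, at 0.77, whose 17, 55 and 13 counts lay opposite the gene of a GATA cofactor. ZFPM2-AS1 passed the count limit through the Rg3 library alone, so its direction is not independent of that limit.

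VPS9D1-AS1 had the lowest Rg3 fold among those with 50 or more counts in a compared library. It lies inside VPS9D1 on the opposite strand, at chr16:89711856-89718165 (plus strand, GRCh38), and had 99 counts in control, 22 in Rg3 and 160 in TAM. The Rg3 fold was -2.50 (-3.23 to -1.82), while VPS9D1 itself, with 65, 73 and 103 counts, had a fold of -0.16 (-0.66 to 0.35). MAFG-AS1, beside the gene of a small Maf factor that pairs with NRF2, had 128, 63 and 283 counts and an Rg3 fold of -1.35 (-1.81 to -0.90), while MAFG, with 741, 934 and 1132 counts, had 0.01 (-0.13 to 0.15). For both RNAs the Rg3 library was the low library of the 3, and neither sense gene was called with Rg3.

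CTBP1-AS2, beside a corepressor gene, had 102, 57 and 164 counts and a fold of -1.17 (-1.66 to -0.68). LBX2-AS1 and FOXC2-AS1, beside a homeobox gene and a forkhead gene, had 86, 50 and 130 counts and 141, 82 and 215 counts. Their Rg3 folds were both -1.11, with intervals of -1.64 to -0.59 and -1.52 to -0.71, and that of LBX2-AS1 was -0.53 and uncalled without the composition trend. FOXC2 fell with its antisense RNA, from 202 to 120 counts, a log2 fold of -1.08 (-1.42 to -0.74). In the annotation 45.5% of the exon bases of FOXC2-AS1 lie in exons of FOXC2. Strand use is not given, so the 2 rows may share reads.

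With TAM more antisense RNAs were higher than lower. Of the 175 antisense RNAs, 64 (36.6%) were higher and 11 (6.29%) lower than in control, while among all genes with 20 or more counts 14.7% were called higher and 19.9% lower. Their median log2 fold was 0.44, against -0.03 over all genes, -0.09 over the sense genes and 0.12 over the LINC RNAs. Of the sense genes 17.9% were higher and 24.8% lower with TAM, and of the LINC RNAs 20.3% and 10.1%. Since the count limit lets in RNAs that were high in TAM alone, the same count was made over the 133 antisense RNAs with 20 or more counts in control. There 47 (35.3%) were higher, beside 14.2% of all genes chosen in the same way, and 11 (8.27%) were lower, beside 20.9%.

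The range of counts was matched as well. Among genes whose highest count was from 20 to under 200 the share higher with TAM was 12.4% and the share lower 19.7%, beside 37.5% and 4.38% of the 160 antisense RNAs in that range. Scaling by library totals shifted all log2 folds with TAM by -0.21 and left 43 antisense RNAs (24.6%) higher and 16 (9.14%) lower, beside 7.32% and 28.7% of all genes, with a median of 0.23 against -0.24 over all genes. Removing the trend of fold on GC content and length left 49 (28.3%) of 173 higher and 10 (5.78%) lower, beside 11% and 12% of all genes. In bulk cultures, more RNA per cell and a change in which cells survived cannot be told apart.

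**Figure D2:**
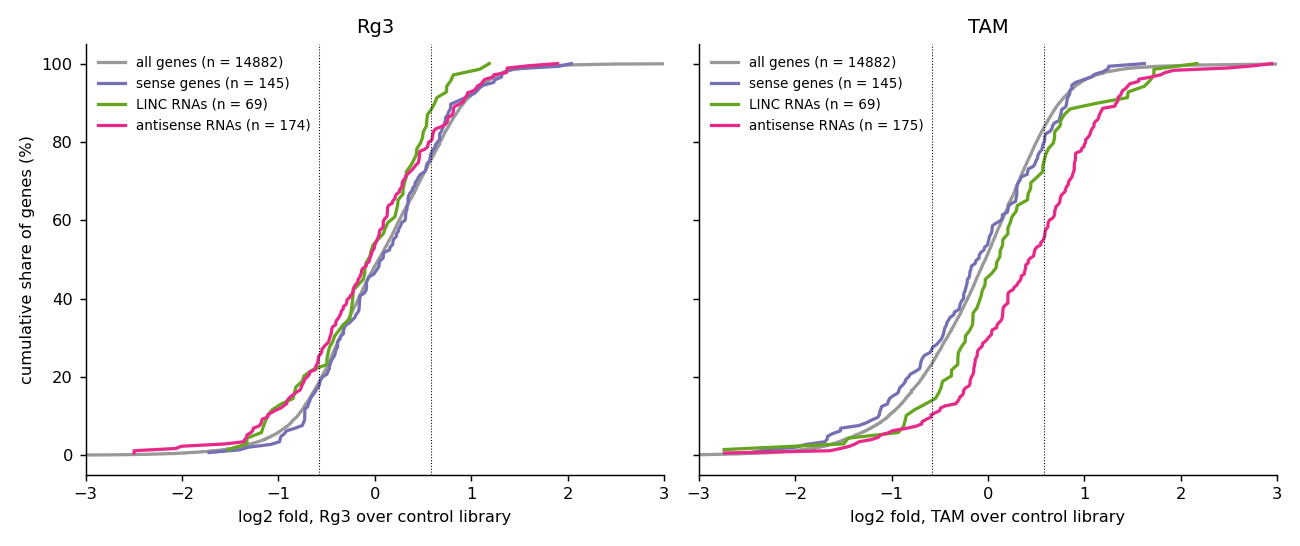
Cumulative share of genes (%) by log2 fold over control for Rg3 (left) and TAM (right), with 1 curve each for antisense RNAs, their sense genes, LINC RNAs and all genes with 20 or more counts in a library, and dotted lines at the fold limits. In the TAM panel the antisense curve lies to the right of the other 3 over most of its course, with its median at 0.44, and in the Rg3 panel the curves lie close together.

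The fold moved with base composition in both treatments, among antisense RNAs less than among genes at large. Across 172 antisense RNAs the rank correlation of the Rg3 fold with exon GC content was -0.49, against -0.78 across all genes, and with TAM it was 0.27 across 173, against 0.47. Genomic span went with the TAM fold at -0.23 among antisense RNAs, at -0.53 among 144 sense genes and at -0.37 across all genes. The median span was 15.5 kb for antisense RNAs and 31.0 kb for sense genes, and the median GC content 49.3% and 50.7%. These are correlations across genes that share the same 3 libraries, and genes are not replicates.

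The antisense RNAs with the largest TAM folds were CCDC183-AS1 and MZF1-AS1. CCDC183-AS1 had 12, 11 and 70 counts, a log2 fold of 2.75 (1.86 to 3.77), and MZF1-AS1, which spans the zinc finger gene MZF1, had 12, 10 and 58 counts and a fold of 2.48 (1.57 to 3.51). Both passed the count limit through the TAM library alone. In the annotation 26.1% of the exon bases of CCDC183-AS1 and 39.8% of those of MZF1-AS1 lie in exons of the sense gene. Strand use is not given, so reads may be shared. With TAM the sense gene MZF1 was called higher, at 0.85, and CCDC183 was not called, at 0.81. NCK1-AS1, beside the gene of an SH2/SH3 adaptor, had 37, 64 and 89 counts and a TAM fold of 1.47 (0.90 to 2.07). ARRDC1-AS1, opposite an arrestin domain gene, had 71, 70 and 166 counts and a fold of 1.43 (1.02 to 1.85). In ARRDC1-AS1 TAM stood above the other 2 libraries, which were not called apart, at a log2 fold of -0.35 (-0.84 to 0.15) for Rg3.

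AFAP1-AS1, a long noncoding RNA studied in pancreatic cancer, went the other way. It lies at chr4:7754090-7778928 on the plus strand (GRCh38) and had 362 counts in control, 427 in Rg3 and 124 in TAM, a TAM fold of -1.34 (-1.65 to -1.04). AFAP1, which codes for an actin filament-associated protein, had 2003, 1892 and 797 counts and a called fold of -1.12, so the pair fell together and the ratio within it shifted by -0.22 (-0.53 to 0.10). PSMD5-AS1, beside a proteasome assembly gene, had 51, 66 and 17 counts with a TAM fold of -1.38 (-2.26 to -0.56). THAP9-AS1 had 139, 307 and 75 counts and HOXB-AS3, in the HOXB cluster, 120, 89 and 69, with TAM folds of -0.68 (-1.11 to -0.27) and -0.59 (-1.04 to -0.15). The first lost its call without the composition trend, at -0.54, and the second with DESeq2 size factors, at -0.56.

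Antisense RNAs were also grouped by what they or their sense genes are known for. Among 39 antisense RNAs on a list of those studied in cancer, Rg3 calls were 10 up and 5 down and TAM calls 12 up and 5 down, with a median TAM fold of 0.15. Among 23 whose sense gene codes for a transcription factor, Rg3 calls were 3 up and 4 down, and TAM calls 12 up and 1 down, with a median TAM fold of 0.70. MAFG-AS1 was among the 12 and HOXB-AS3 was the 1 that was lower, while NR2F1-AS1, beside an orphan nuclear receptor gene, had 108, 169 and 85 counts and no call. Among 22 beside genes of signalling, adhesion and the cytoskeleton, there were 3 Rg3 calls up and 4 down, and 7 TAM calls up and 4 down, the last including FGD5-AS1 and AFAP1-AS1. Among 17 beside genes of metabolism, transport and mitochondria, there were 4 Rg3 calls up and 1 down, and 3 TAM calls up and 2 down. In that list STARD7-AS1, beside a phosphatidylcholine transfer gene, had 62, 76 and 75 counts, and ATP6V0E2-AS1, beside a proton pump subunit gene, 63, 54 and 76, both uncalled, and OIP5-AS1 stands there although its sense gene serves the centromere. Over all 175 antisense RNAs 14.3% were higher and 16.6% lower with Rg3, and 36.6% and 6.29% with TAM. Over all genes with 20 or more counts the shares were 22.5% and 17.1% with Rg3, and 14.7% and 19.9% with TAM. The lists were not tested against either, and their counts are not read as traits of the lists.

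The annotation of GENCODE release 29 (GRCh38) placed 167 pairs, all on opposite strands. In 60 the 5′ ends overlapped, in 40 the 3′ ends, in 16 the antisense RNA lay inside the sense gene and in 15 around it. The other 36 were divergent without overlap, 35 of them with starts at most 1 kb apart, at a median distance of 110 bases. Exons of the 2 genes overlapped in 113 pairs, by a median of 304 bases or 9.82% of the antisense exons. Strand use in counting is not given in the sources used here, so in these pairs reads of the antisense RNA and of the sense gene cannot be told apart where exons overlap. The map of exons shows the kinds of pair for 6 examples.

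**Figure D3:**
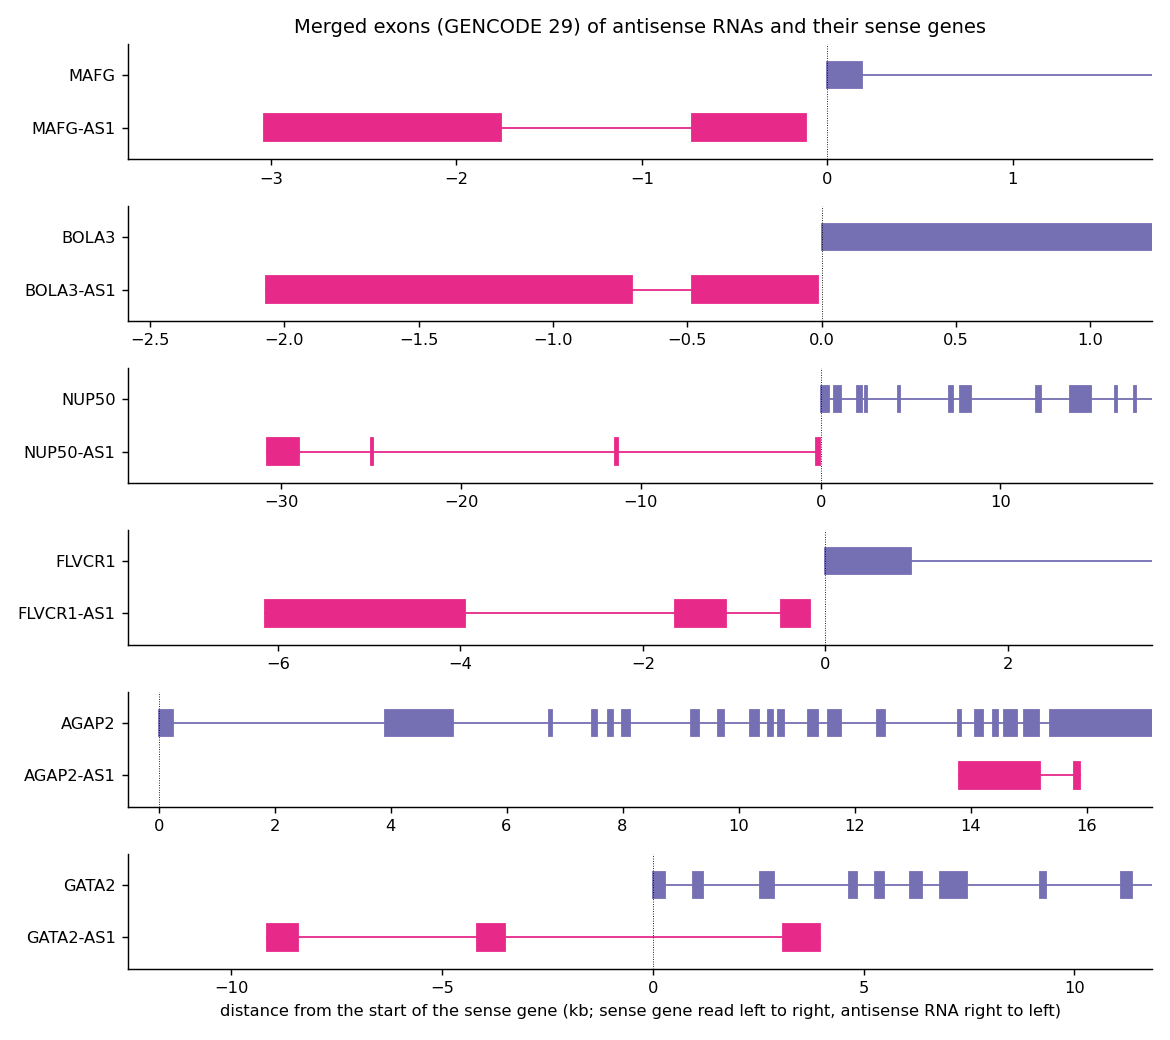
Exons (boxes) and introns (lines) of 6 antisense RNAs and their sense genes by distance in kb from the start of the sense gene, drawn so that the sense gene reads from left to right, cropped on the right for long sense genes. MAFG-AS1, BOLA3-AS1, NUP50-AS1 and FLVCR1-AS1 start left of the sense start and read away from it, AGAP2-AS1 lies inside its sense gene with overlapping exons, and GATA2-AS1 starts in an intron of GATA2.

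For divergent pairs the start of the antisense RNA and the promoter of the sense gene lie close together. RefSeq promoter windows, from 250 bases before to 50 after the start, were found for 140 antisense RNAs. For TNRC6C-AS1 the name led to the RefSeq gene TMC6, so its window is that of TMC6. In 43 the window overlapped that of the sense gene, with starts a median of 144 bases apart and a median of 220 bases in common. The 5 windows below are shown because a single stretch serves 2 transcripts that moved differently in these libraries, or, for BOLA3-AS1, together. They were chosen after the values were seen. Each is written 5′ to 3′ on the strand of the antisense RNA, on GRCh38.p14, and capitals mark the bases also held by the promoter window of the sense gene. MAFG-AS1 is on the plus strand at chr17:81927579-81927878, BOLA3-AS1 on the plus strand at chr2:74147731-74148030, NUP50-AS1 on the minus strand at chr22:45163732-45164031, FLVCR1-AS1 on the minus strand at chr1:212858089-212858388 and NCBP2-AS2 on the plus strand at chr3:196942424-196942723.
MAFG-AS1: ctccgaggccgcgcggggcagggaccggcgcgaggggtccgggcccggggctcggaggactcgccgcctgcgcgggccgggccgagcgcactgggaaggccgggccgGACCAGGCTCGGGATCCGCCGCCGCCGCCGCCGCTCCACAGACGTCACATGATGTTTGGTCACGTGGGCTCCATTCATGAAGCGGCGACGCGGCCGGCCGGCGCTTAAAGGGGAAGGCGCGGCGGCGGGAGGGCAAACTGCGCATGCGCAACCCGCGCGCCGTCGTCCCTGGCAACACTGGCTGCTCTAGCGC
BOLA3-AS1: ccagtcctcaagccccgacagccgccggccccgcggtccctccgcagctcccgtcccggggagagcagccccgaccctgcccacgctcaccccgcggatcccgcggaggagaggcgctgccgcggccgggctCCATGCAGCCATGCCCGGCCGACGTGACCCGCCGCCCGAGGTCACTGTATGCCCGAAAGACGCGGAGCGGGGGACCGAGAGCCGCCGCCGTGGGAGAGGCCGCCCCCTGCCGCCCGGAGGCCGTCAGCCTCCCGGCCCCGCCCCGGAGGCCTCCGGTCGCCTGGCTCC
NUP50-AS1: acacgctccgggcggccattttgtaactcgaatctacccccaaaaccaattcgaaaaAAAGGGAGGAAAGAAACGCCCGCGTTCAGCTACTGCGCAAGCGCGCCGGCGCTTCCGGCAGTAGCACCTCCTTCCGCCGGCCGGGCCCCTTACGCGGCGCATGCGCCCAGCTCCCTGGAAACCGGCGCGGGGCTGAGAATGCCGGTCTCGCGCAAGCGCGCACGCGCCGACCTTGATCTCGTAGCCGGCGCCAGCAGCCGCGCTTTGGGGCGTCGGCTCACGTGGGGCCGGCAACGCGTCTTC
FLVCR1-AS1: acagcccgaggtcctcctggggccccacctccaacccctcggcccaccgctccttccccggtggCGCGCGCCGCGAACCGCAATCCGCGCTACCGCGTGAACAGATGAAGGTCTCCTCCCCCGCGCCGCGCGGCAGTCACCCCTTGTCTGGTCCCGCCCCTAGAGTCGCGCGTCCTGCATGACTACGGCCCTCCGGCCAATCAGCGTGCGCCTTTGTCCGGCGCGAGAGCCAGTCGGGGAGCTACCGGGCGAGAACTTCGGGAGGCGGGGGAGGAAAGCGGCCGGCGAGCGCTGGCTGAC
NCBP2-AS2: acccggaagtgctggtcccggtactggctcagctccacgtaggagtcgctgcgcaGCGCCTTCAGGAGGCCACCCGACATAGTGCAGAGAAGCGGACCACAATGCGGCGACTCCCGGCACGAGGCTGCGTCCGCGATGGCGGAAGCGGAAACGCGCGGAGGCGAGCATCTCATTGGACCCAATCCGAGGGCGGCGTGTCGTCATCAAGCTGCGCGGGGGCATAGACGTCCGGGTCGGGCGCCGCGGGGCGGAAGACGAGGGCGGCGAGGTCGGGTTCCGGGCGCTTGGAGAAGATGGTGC

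All 5 windows are rich in G and C, from 67% in NUP50-AS1 to 79% in BOLA3-AS1, and none holds TATAAA on either strand. Counting both strands, the GC box GGGCGG, with reverse CCGCCC, was found in 65% of the 140 antisense windows and 44.6% of 27305 RefSeq promoters, CCAAT, with reverse ATTGG, in 39.3% and 35.7%, and TATAAA, with reverse TTTATA, in 5% and 11.95%. The median GC content was 66.3% in the antisense windows and 58.3% in all RefSeq promoters, so these motif shares are not matched for base composition. None of the 3 motifs contains another. A match to these letters is a description and not evidence of binding.

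The pairs behind these windows behaved in different ways. In the MAFG pair both RNAs were higher in TAM, with MAFG at a log2 fold of 0.82 (0.68 to 0.95) and MAFG-AS1 at 1.35 (1.04 to 1.66), but with Rg3 only the antisense RNA was called, and the log2 ratio of antisense to sense counts shifted by -1.36 (-1.81 to -0.90). The ratio uses the counts of both genes in the same library, so no scaling enters it. BOLA3-AS1 had 103, 126 and 178 counts beside 325, 455 and 479 for BOLA3, a gene of iron-sulfur cluster assembly. Both were higher in TAM, at 1.00 (0.64 to 1.36) and 0.77 (0.56 to 0.97), and the ratio shifted by 0.23 (-0.18 to 0.63).

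NUP50-AS1 had 57, 47 and 88 counts, while the nucleoporin gene NUP50 had 258, 390 and 113. In TAM the antisense RNA was higher at 0.83 (0.34 to 1.34) and the sense gene lower at -0.98 (-1.32 to -0.66), a ratio shift of 1.82 (1.24 to 2.39). With Rg3 the ratio went the other way, by -0.87 (-1.48 to -0.27).

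FLVCR1-AS1 had 45, 132 and 81 counts and FLVCR1, which codes for a membrane transporter, 46, 217 and 41. Both were higher in Rg3, at 1.23 (0.73 to 1.75) and 1.91 (1.45 to 2.40), and in TAM the antisense RNA alone was higher, at 1.05 (0.51 to 1.61). NCBP2-AS2, which GENCODE annotates as protein coding, had 135, 91 and 115 counts and NCBP2, a subunit of the nuclear cap-binding complex, 397, 783 and 242. With Rg3 it was the single pair called in opposite directions, NCBP2-AS2 at -0.90 (-1.30 to -0.50) and NCBP2 at 0.65 (0.48 to 0.83). Without the composition trend NCBP2-AS2 was at -0.38 and not called.

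Over all pairs with 20 or more counts on both sides in control or the treated library, the ratio leaned down with Rg3 and up with TAM. With Rg3, 134 pairs could be compared, and the ratio was up in 18 and down in 30 by the same fold limits, with a median shift of -0.18. With TAM, 131 pairs could be compared, and the ratio was up in 54 and down in 5, with a median shift of 0.51. An antisense RNA that entered through TAM alone leans the ratio up. Over the 110 TAM pairs whose antisense RNA had 20 or more counts in control, the ratio was up in 39 and down in 5, with a median shift of 0.36, and over 114 such Rg3 pairs it was up in 12 and down in 30, with a median of -0.28. The median over all 131 TAM pairs was 0.43 with the composition trend removed. Counted in either direction, the ratio moved in 35.8% of pairs with Rg3 and 45.0% with TAM, beside 27.2% and 35.5% of other divergent gene pairs with starts at most 1 kb apart. Those other pairs were not matched for counts. In TAM the antisense fold lay above the sense fold in 100 of 131 pairs, and in Rg3 in 56 of 134. With 20 or more antisense counts in control these were 80 of 110 and 40 of 114.

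Divergent pairs without overlap had the lowest median shift with Rg3, -0.59, with 2 up and 13 down among 33 pairs, and the highest with TAM, 0.63, with 15 up and 3 down among 36. In the annotation such pairs share no exon base. Pairs overlapping at their 5′ ends had medians of -0.21 with Rg3 and 0.39 with TAM, and pairs overlapping at their 3′ ends 0.25 and 0.53. Antisense RNAs inside the sense gene were called higher with TAM in 9 of 16 cases, those overlapping at 5′ ends in 24 of 60, divergent ones in 13 of 36, those around the sense gene in 5 of 15 and those overlapping at 3′ ends in 9 of 40, beside 36.6% of all 175 and 14.7% of all genes. The differences between these classes were not tested.

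**Figure D4:**
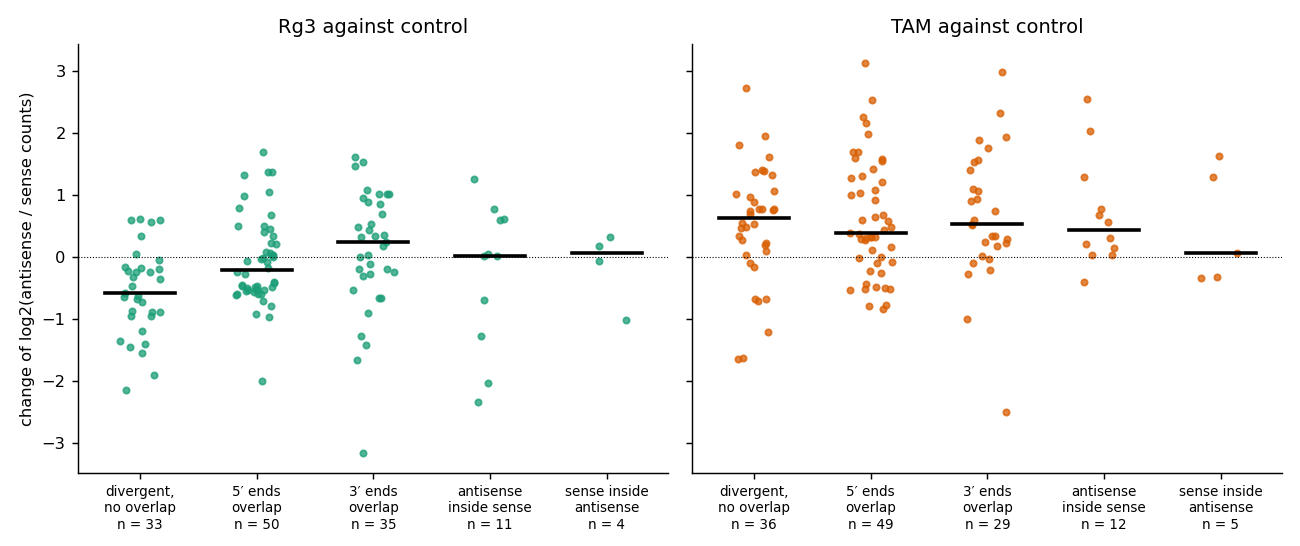
Change of log2(antisense counts / sense counts) against control for each pair, by the arrangement of the pair, for Rg3 (left) and TAM (right), with 1 point per pair and a bar at the median. Divergent pairs have the lowest Rg3 median, -0.59, and the highest TAM median, 0.63.

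Calls in the same direction were few. With Rg3 both members of a pair were called the same way in 12 of 134 pairs, 6 higher and 6 lower, and in opposite ways in 1, which is 8.96% and 0.746%. Among other divergent gene pairs these shares were 18.1% and 0.181%, but the antisense pairs mix several arrangements. The other pairs were also not matched to them for counts, on which a call depends. Of the 33 antisense pairs that were divergent without overlap, 4 moved the same way with Rg3 and 1 in opposite ways. With TAM, 17 of 131 pairs (12.98%) moved the same way, 14 higher and 3 lower, and 8 (6.11%) opposite ways, beside 8.13% and 1.11% of other divergent pairs. Of the 36 antisense pairs that were divergent without overlap, 3 moved the same way with TAM and 3 in opposite ways. In each of the 8 opposite pairs the antisense RNA was higher and the sense gene lower. In 3 of them, those of PDCD4-AS1, PAXIP1-AS1 and SRP54-AS1, the antisense RNA had under 20 counts in control and entered through its higher count with a drug, so its direction is not independent of the count limit. Without such RNAs, 5 of 110 pairs were opposite, with the antisense RNA higher in all 5, and 14 moved the same way. Of the pairs moving the same way 12 had overlapping exons and 5 did not, and of the opposite pairs 3 had and 5 did not.

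The rank correlation of antisense with sense fold was 0.33 over 134 pairs with Rg3 and 0.27 over 131 with TAM. These folds share libraries and depth, and both follow base composition. With the composition trend removed the correlations were -0.02 over 133 pairs and 0.26 over 131.

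**Figure D5:**
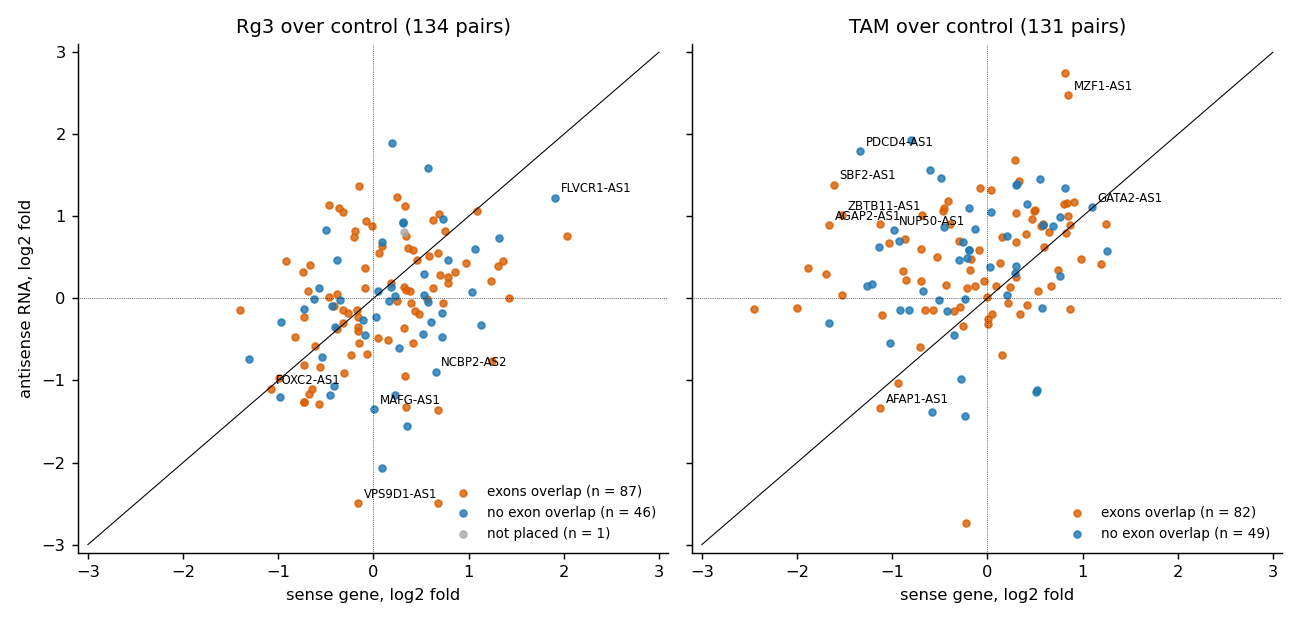
Log2 fold over control of each antisense RNA against that of its sense gene for Rg3 (left, 134 pairs) and TAM (right, 131 pairs), coloured by exon overlap, with the line of equal folds. In the TAM panel 100 of 131 points lie above the line, and 80 of the 110 whose antisense RNA had 20 or more counts in control. The upper left holds pairs such as PDCD4-AS1 and SBF2-AS1 with the antisense RNA higher and the sense gene lower.

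The 5 opposite pairs with the largest difference in TAM were those of PDCD4, SBF2, PAXIP1, AGAP2 and ZBTB11. SBF2-AS1 had 34, 87 and 77 counts and SBF2, a myotubularin family gene, 540, 1095 and 153. With TAM the antisense RNA was at 1.39 (0.79 to 2.01) and the sense gene at -1.61 (-1.88 to -1.35), a ratio shift of 3.00 (2.36 to 3.64). With Rg3 both were higher, at 1.03 (0.44 to 1.65) and 0.69 (0.54 to 0.84), the first uncalled at 0.47 without the composition trend.

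PDCD4-AS1 had 8, 8 and 24 counts, few enough that the TAM fold of 1.79 has an interval of 0.59 to 3.16. PDCD4, an inhibitor of translation initiation, had 105, 192 and 36 counts and a TAM fold of -1.34 (-1.93 to -0.78). PAXIP1-AS1 had 10, 13 and 33 counts, a fold of 1.93 (0.87 to 3.11), and PAXIP1, a BRCT domain gene of the DNA damage response, 258, 345 and 128, a fold of -0.81 (-1.12 to -0.49). Both antisense RNAs passed the count limit through TAM alone. Neither shares an exon base with its sense gene in the annotation.

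AGAP2-AS1 lies inside AGAP2, the gene of a GTPase-activating protein for ARF, at chr12:57726271-57728356 (plus strand, GRCh38), and 57.7% of its exon bases lie in exons of AGAP2. It had 255, 163 and 411 counts, and AGAP2 had 117, 74 and 32. With Rg3 both were lower, at -0.97 (-1.26 to -0.68) and -0.99 (-1.43 to -0.56), and the ratio shifted by 0.02 (-0.49 to 0.52). With TAM the antisense RNA was higher at 0.89 (0.67 to 1.13) and AGAP2 lower at -1.66 (-2.28 to -1.09), a ratio shift of 2.56 (1.95 to 3.17). Without the composition trend neither AGAP2-AS1 fold was called, at -0.31 and 0.34. ZBTB11-AS1 had 44, 53 and 77 counts, and the zinc finger gene ZBTB11 had 120, 250 and 36, TAM folds of 1.01 (0.46 to 1.58) and -1.53 (-2.11 to -0.98).

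GATA2-AS1, chosen after its values were seen, showed a pair that moved together in TAM. It had 39, 40 and 73 counts and the transcription factor gene GATA2 had 197, 126 and 367, TAM folds of 1.11 (0.53 to 1.71) and 1.10 (0.85 to 1.36). With Rg3 GATA2 was lower at -0.97 (-1.31 to -0.64) and GATA2-AS1 was at -0.29 (-0.96 to 0.38). In this pair the annotation shows no exon overlap.

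Both treatments were compared with the same control library, so a high or low control count moves both folds together. TMEM44-AS1 had 10, 27 and 28 counts and DLGAP1-AS1 21, 50 and 39. They were called higher with Rg3, at 1.11 and 0.92, and with TAM, at 1.69 and 1.10, as were SNAI3-AS1, FLVCR1-AS1 and SBF2-AS1. TMEM44-AS1 passed the count limit through the treated libraries alone, so its direction is not independent of that limit. RHPN1-AS1 was lower with both drugs, with 33, 18 and 13 counts and folds of -1.20 (-2.12 to -0.33) and -1.14 (-2.19 to -0.17). The Rg3 call of RHPN1-AS1 and the TAM call of DLGAP1-AS1 ended without the composition trend, at -0.77 and 0.79. In these RNAs the control library was the lowest or the highest of the 3. MYLK-AS1, opposite the myosin light chain kinase gene, had 22, 11 and 40 counts, and ATP2A1-AS1, inside a muscle calcium pump gene, 49, 24 and 85. They had Rg3 folds of -1.33 (-2.52 to -0.22) and -1.36 (-2.13 to -0.62) and TAM folds of 1.07 (0.28 to 1.89) and 1.00 (0.48 to 1.54), so control lay between the treated libraries, as it did for VPS9D1-AS1 and MAFG-AS1. The TAM calls of ATP2A1-AS1 and VPS9D1-AS1 ended without the composition trend, at 0.55 and 0.37.

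Some antisense RNAs could share reads with other genes even when the strand is known. Of 173 matched to the annotation, 9 had at least 10% of the 50-base stretches of their longest transcript in transcripts of another gene on the same strand. NUTM2A-AS1 shared 64.3%, mainly with its copy NUTM2B-AS1, and THAP9-AS1 14.99%, mainly with SEC31A, so their counts are uncertain. Exons of 132 antisense RNAs overlapped exons of some other gene on either strand and those of 41 overlapped none. Among the 41, Rg3 calls numbered 7 up and 10 down, and TAM calls 13 up and 4 down, where all genes had 22.5% and 17.1% with Rg3 and 14.7% and 19.9% with TAM.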

How the data were processed

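PANC-1 RNA was sequenced on the Ion Proton platform, 1 library per condition. The authors checked reads with FAST-QC, aligned them with TopHat, assembled junctions with MAQ and deposited unnormalised read counts per gene, on GRCh38 per the labels. The counting tool, its annotation and strand use are not given in the sources used here. The deposited counts were scaled with TMM (edgeR 4.0.16, R 4.3.3). Counts under 3 were raised to 3, and no fold was given where both were at or under 3. A call needed a fold over 1.5 or under 0.67, the limits of the study, and an exact Clopper-Pearson 95% interval on 1 side of no change (scipy 1.17.1). The limma filter of the study cannot be run on single libraries. Members, gene lists and tests were chosen with earlier results of these data known. The ratio of antisense to sense counts, with a Wald 95% interval, was added after the data were seen. Antisense RNAs were matched to GENCODE 29, 151 by name and 22 by an older name held in RefSeq, with 2 unmatched. A loess trend (span 0.3) of fold on GC content and log length, fitted on genes with 50 or more counts, was removed as an alternative. The calling script was tested on simulated counts. Named were the 10 antisense RNAs with the most counts, the 5 largest and 5 smallest called folds per treatment with 50 or more counts in a compared library, up to 5 pairs called in opposite directions per treatment, up to 5 called with both treatments in each pattern, and up to 4 per list by counts. NUTM2A-AS1, SRP54-AS1, BOLA3-AS1, NUP50-AS1, GATA2-AS1 and JMJD1C-AS1 were added after their values were seen. TNRC6C-AS1 was named for its promoter match alone.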

Additional observations from a re-analysis of the deposited data

How the results depend on the processing

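With 1 library per condition, no library could be left out and no replicate error stands behind any fold. No paired analysis was possible because no condition has a replicate. The 6 counts of calls were recomputed under 12 alternatives, 3 of them chosen after seeing the data, and 43 of the 72 values stayed within 1.5 times the count in the report. An assumed biological coefficient of variation of 0.4, with adjusted p under 0.05 by the edgeR exact test, left 0 antisense RNAs and 0 pairs called in any direction with either drug, and over all genes 0 higher and 1 lower with each drug. At a fold limit of 2, Rg3 calls were 11 up and 19 down, TAM calls 36 up and 6 down, and 2 pairs moving the same way with each drug. Counting only the 41 antisense RNAs without exon overlap, fewer by construction, left 7 Rg3 calls up and 10 down, 13 TAM calls up and 4 down, and 2 and 5 pairs moving the same way. A minimum of 50 counts, which 90 antisense RNAs passed, left 17 Rg3 calls down, 41 TAM calls up and 7 down, and 11 pairs moving the same way with TAM. The fold without the counting interval gave 44 lower and 19 pairs with Rg3 and 18 lower with TAM. No count minimum, with 511 antisense rows, also gave 18 lower with TAM. The counts at a fold limit of 2, at 50 counts, by fold alone and without a minimum have no all-gene share beside them. They are therefore not read against genes at large. Library totals gave 11 pairs moving the same way with TAM. Once folds were freed of the composition trend, 4 pairs moved the same way with Rg3 and 8 with TAM, and the cause was not tested. DESeq2 1.42.0 size factors, a mean of 20 or more counts, 20 or more counts in control and leaving out RNAs with shared stretches kept all 6 counts within 1.5 times. At a median highest count of 51, counting error alone limits what a single antisense RNA can show.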

Other observations

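The 173 antisense RNAs matched to GENCODE 29 were of several annotated kinds. The annotation calls 113 of them antisense, 24 processed transcripts, 23 intergenic RNAs and 2 bidirectional promoter RNAs, while 8 are transcribed pseudogenes and 3, among them NCBP2-AS2 and MMP24-AS1, are protein coding. They lie on every chromosome but Y, with 19 on chromosome 3, 14 on chromosome 1 and 12 each on chromosomes 17 and 19. For 6 antisense RNAs, 5 of them in the HOXB and HOXC clusters, the table holds no row with the name before the hyphen. In 23 an exon overlapped an exon of another gene on the same strand.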
